A study of Arabidopsis thaliana with 8 samples.

Results

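The salicylate immunity genes are 34 Arabidopsis loci of one defence pathway, among 33557 genes in the files. They were chosen by locus code, and cover the synthesis of salicylate and pipecolate, the EDS1 node, the NPR receptors with their NIMIN partners, WRKY factors, PR and other response genes, salicylate hydroxylases, camalexin enzymes, and the lipid-transfer-like genes AZI1 and EARLI1. All 34 were found in the files and in RefSeq, and 29 had a mean of at least 1 FPKM and entered the tests. FPKM gives the sequenced fragments of a gene relative to its length and to the library, so levels of different genes can be set beside each other.

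The material was whole seedlings at 7 days, grown in long days on plates and not described as treated with a pathogen or with salicylate. The 4 genotypes were the wild type Col-0, the mutants dek3-2 and dek4-2, and dd-2, which carries both mutations, with 2 libraries each. The stated purpose was to find genes that depend on DEK3 and DEK4, which encode DEK-domain chromatin proteins. Each mutation is represented by 1 allele, and the labels call the libraries biological replicates without naming separate plates or harvests. In whole seedlings, fewer cells of a type and less RNA per cell cannot be told apart.

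Salicylate is a plant hormone of defence against pathogens that feed on living tissue. After infection it is made largely from isochorismate in the chloroplast, is sensed by the NPR proteins, and acts through TGA and WRKY transcription factors to switch on PR genes. EDS1 and its partners pass on signals of intracellular immune receptors, and N-hydroxypipecolate carries resistance to distant leaves. In unchallenged plants the pathway is kept low, and its constant activity slows growth.

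DEK3 transcript stood at 59.2 FPKM on average in Col-0 and 64.0 in dek4-2, against 14.97 in dek3-2 and 18.7 in dd-2. DEK4 stood at 29.4 in Col-0 and 32.5 in dek3-2, against 14.3 in dek4-2 and 15.9 in dd-2. Shoot and root markers were present in every library, as in a whole seedling. The summed level of 4 seed markers was 774 FPKM in dek3-2 replicate 1 and 79.96 in dd-2 replicate 2, against 1.45 to 12.4 in the other 6 libraries. Of 3 senescence markers, SAG12 stayed between 0.0304 and 0.346 FPKM and SAG13 between 1.94 and 5.50. SAG21 was not low, at 269.5 to 484 FPKM. In genes with a single exon, 98.8 to 99.7 percent of low values fell within 0.15 of a whole fragment, where chance gives 30 percent, which gave relative depths from 0.799 (the second dd-2 library) to 1.13 (the second of Col-0). For 1 kb of length beyond an end correction of 190 bp, 1 FPKM stood for 24.5 to 34.6 fragments.

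The levels spanned 4 classes. Of the 34 genes, 5 had a mean under 1 FPKM over the 8 libraries, 11 lay between 1 and 5, 16 between 5 and 20, and 2 above 20. None was listed at 0 in any library. The median of the 34 means was 5.16 FPKM. AZI1 and EARLI1 stood far above the rest, and AZI1 ranked 33 among all 33557 genes by mean level.

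**Figure D1:**
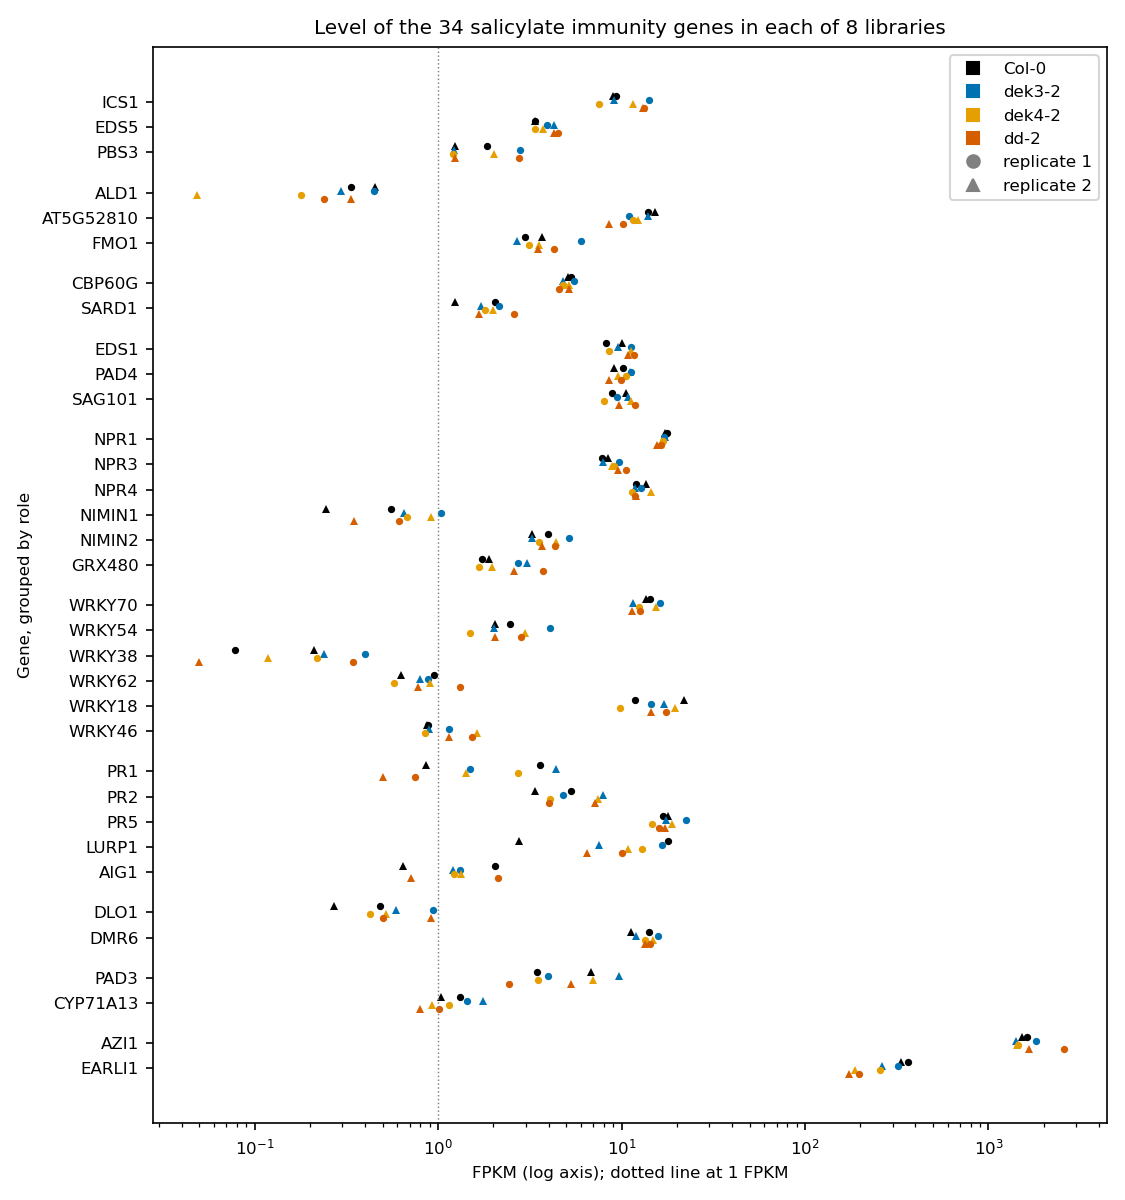
FPKM (log axis) of each of the 34 genes, grouped by role, in 8 libraries. Colours mark the genotypes, circles replicate 1 and triangles replicate 2, and the dotted line is at 1 FPKM. Most genes lie under 20 FPKM with the genotypes intermixed, while AZI1 and EARLI1 lie above 170.

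Synthesis of salicylate was represented by 3 genes. ICS1 (AT1G74710, chromosome 1, 28070295 to 28074148) encodes the isochorismate synthase of the induced route. Its level was 9.27 and 8.94 FPKM in the Col-0 libraries, 14.1 and 9.15 in dek3-2, 7.51 and 11.6 in dek4-2, and 13.3 and 13.1 in dd-2. Both dd-2 libraries were above both Col-0 libraries, but dek3-2 replicate 1 was higher still. EDS5 (AT4G39030), the transporter that exports isochorismate from the chloroplast, was at 3.36 and 3.39 in Col-0, 3.92 and 4.27 in dek3-2, 3.40 and 3.72 in dek4-2, and 4.53 and 4.31 in dd-2. All 6 mutant libraries lay above both Col-0 libraries, by little in dek4-2. PBS3 (AT5G13320), the enzyme that joins isochorismate to glutamate, ranged from 1.204 to 2.80 FPKM, with 1 high and 1 low library in each mutant. EDS5 shares a merged locus in the files with AT4G39040, an overlapping gene on the opposite strand at 82.4 to 110.2 FPKM, so the EDS5 values are uncertain where counting did not use strand.

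ICS1 has a pair of related activators. CBP60G (AT5G26920), a calmodulin-binding transcription factor, was close to level, and lay between 4.56 and 5.53 FPKM in all 8 libraries. Its relative SARD1 (AT1G73805) lay between 1.24, in Col-0 replicate 2, and 2.59, in dd-2 replicate 1. For both, the genotypes overlapped.

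Of the pipecolate genes, ALD1 (AT2G13810), the aminotransferase that starts the route from lysine, was among the 5 low members, at 0.0483 to 0.452 FPKM. FMO1 (AT1G19250), which makes N-hydroxypipecolate, lay between 2.701 and 6.03, with the top value in dek3-2 replicate 1. AT5G52810 (chromosome 5, 21395944 to 21400603), annotated as an NAD(P)-binding Rossmann-fold protein, was at 13.9 and 15.1 FPKM in Col-0, 11.01 and 14.0 in dek3-2, 11.5 and 12.2 in dek4-2, and 10.2 and 8.57 in dd-2. The dd-2 libraries were the 2 lowest of the 8. The locus is merged in the files with its same-strand neighbour AT5G52800, which was at 0.41 to 0.677 FPKM.

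The 3 genes of the EDS1 node, which encode lipase-like proteins, had nearly equal transcript levels. EDS1 (AT3G48090) averaged 10.2 FPKM over the libraries, and its partners PAD4 (AT3G52430) and SAG101 (AT5G14930) averaged 10.03 and 10.1. EDS1 was at 8.28 and 10.07 in Col-0 and 11.7 and 10.9 in dd-2. PAD4 was at 10.1 and 9.08 in Col-0 and 11.3 and 11.1 in dek3-2. In each case both mutant libraries were above both Col-0 libraries, by less than 1 FPKM at the nearest pair.

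Among the receptors, NPR1 (AT1G64280), the salicylate-binding coactivator, had the smallest spread between replicates of the 29 tested members, between 15.6 and 17.7 FPKM. It shares a merged locus in the files with AT1G64270, at 4.91 to 7.34 FPKM. Its lowest values were the 2 of dd-2, at 16.4 and 15.6. The corepressor NPR3 (AT5G45110) was at 7.78 and 8.49 in Col-0 and 10.5 and 9.52 in dd-2, and NPR4 (AT4G19660), of the same kind, lay between 11.5 and 14.4 in all libraries. NIMIN1 (AT1G02450), an NPR1-binding regulator, was at 0.245 to 1.04 FPKM, which stands for 3 to 12 fragments a library, so counting error alone is wide there. NIMIN2 (AT3G25882) lay between 3.24 and 5.20.

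GRX480 (AT1G28480, chromosome 1, 10013474 to 10014073) encodes a glutaredoxin that binds TGA factors and dampens jasmonate responses. It was at 1.75 and 1.89 FPKM in Col-0, 2.73 and 3.05 in dek3-2, 1.67 and 1.97 in dek4-2, and 3.74 and 2.596 in dd-2. The 4 libraries with the dek3-2 mutation were above the 4 without it, a split noticed after the values were seen. How many of all genes split in this way was not counted. These values stand for 22 to 43 fragments a library.

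The WRKY factors ranged from barely detected to moderate levels. WRKY70 (AT3G56400), which links salicylate and jasmonate responses, lay between 11.4 and 16.3 FPKM, and its partner WRKY54 (AT2G40750) between 1.5004 and 4.05. WRKY18 (AT4G31800), a regulator of early defence genes, was at 11.8 and 21.9 in Col-0 and spread as widely in dek4-2, at 9.75 and 19.6. WRKY46 (AT2G46400), which acts with WRKY70 in basal defence, was at 0.877 and 0.868 in Col-0 and at 1.52 and 1.15 in dd-2. WRKY38 (AT5G22570) and WRKY62 (AT5G01900), which act against basal defence, were low, at 0.0495 to 0.402 and 0.574 to 1.32.

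The PR genes are the classic output of the pathway, and their levels differed. PR1 (AT2G14610, chromosome 2, 6241704 to 6242463), a secreted protein used as the standard salicylate marker, was at 3.59 and 0.858 FPKM in Col-0, 1.49 and 4.39 in dek3-2, 2.73 and 1.42 in dek4-2, and 0.751 and 0.502 in dd-2. The dd-2 libraries were the lowest 2, but the Col-0 libraries differed 4.18-fold from each other. The PR1 values stood for 63 and 17 fragments in Col-0 and for 12 and 7 in dd-2. PR2 (AT3G57260), a glucanase that attacks fungal walls, lay between 3.38 and 7.89, and PR5 (AT1G75040), a thaumatin-like protein, between 14.6 and 22.4. LURP1 (AT2G14560), needed for defence against downy mildew, ran from 2.76 to 17.97 FPKM, both ends in Col-0. AIG1 (AT1G33960), induced by the bacterial effector avrRpt2, lay between 0.641 and 2.12.

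Salicylate is inactivated by 2 hydroxylases. DMR6 (AT5G24530), the 5-hydroxylase, lay between 11.2 and 15.7 FPKM. DLO1 (AT4G10500), the 3-hydroxylase, was low, at 0.271 to 0.934. The camalexin gene PAD3 (AT3G26830), of the last step to this antimicrobial compound, lay between 2.43 and 9.65. CYP71A13 (AT2G30770), of an earlier step, was at 1.32 and 1.04 in Col-0, 1.44 and 1.77 in dek3-2, 1.15 and 0.924 in dek4-2, and 1.01 and 0.794 in dd-2. Its neighbour copy CYP71A12 shares 90.4 percent of coding bases, with an identical stretch of 59 bases, so how fragments were split between these copies is uncertain.

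AZI1 (AT4G12470, chromosome 4, 7401109 to 7401907) and EARLI1 (AT4G12480, chromosome 4, 7406105 to 7406937) encode related lipid-transfer-like proteins. AZI1 is known for priming by azelaic acid, a mobile signal of systemic resistance. AZI1 was at 1631 and 1529 FPKM in Col-0, 1811 and 1414 in dek3-2, 1452 and 1434 in dek4-2, and 2568 and 1664 in dd-2. EARLI1 was at 365 and 333 in Col-0, 319.7 and 264 in dek3-2, 257 and 187 in dek4-2, and 198 and 173 in dd-2. The mean of AZI1 was highest in dd-2 and that of EARLI1 lowest there. The AZI1 mean rested on dd-2 replicate 1, since replicate 2 was little above Col-0 and below dek3-2 replicate 1, and AZI1 was not called (log2 difference 0.39 ± 0.20, limma adjusted p = 0.322). The genes are neighbours on the same strand, 4113 bp apart in RefSeq. EARLI1 reached 22.4 and 21.8 percent of the AZI1 level in Col-0, 17.7 and 18.6 in dek3-2, 17.7 and 13.04 in dek4-2, and 7.69 and 10.4 in dd-2. The order of these percentages was Col-0 above both single mutants above dd-2 without overlap, except that the single mutants overlapped each other. This order was noticed after the values were seen. It was not tested or set beside that of other gene pairs.

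Upstream sequences are shown for genes chosen by patterns that were seen in the values and not tested. Those of AZI1 and EARLI1 are shown for the EARLI1 percentages of AZI1, which did not overlap between Col-0 and dd-2. That of GRX480 is shown for the split of its values by the dek3-2 mutation. Each is the 250 bases before the gene's start in RefSeq (TAIR10.1), on the minus strand and written 5′ to 3′: chr4:7401952-7402201 for AZI1, chr4:7406995-7407244 for EARLI1 and chr1:10014257-10014506 for GRX480. The loci behind the FPKM end at 7401907, 7406937 and 10014073 in that order, so bases between each locus and its window were not searched. Capitals mark TTGAC, the core of the W box that WRKY factors bind, and TGACG, the core of TGA-factor sites, on either strand.
AZI1: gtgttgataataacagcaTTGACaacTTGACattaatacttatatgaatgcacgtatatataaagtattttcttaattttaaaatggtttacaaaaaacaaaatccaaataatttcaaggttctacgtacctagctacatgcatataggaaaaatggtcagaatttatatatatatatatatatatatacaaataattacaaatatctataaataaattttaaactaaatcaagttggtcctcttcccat
EARLI1: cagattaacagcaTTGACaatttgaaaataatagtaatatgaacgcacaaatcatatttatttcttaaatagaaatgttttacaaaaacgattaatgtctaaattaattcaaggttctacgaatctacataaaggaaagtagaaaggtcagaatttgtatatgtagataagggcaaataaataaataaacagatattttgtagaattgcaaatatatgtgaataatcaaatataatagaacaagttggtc
GRX480: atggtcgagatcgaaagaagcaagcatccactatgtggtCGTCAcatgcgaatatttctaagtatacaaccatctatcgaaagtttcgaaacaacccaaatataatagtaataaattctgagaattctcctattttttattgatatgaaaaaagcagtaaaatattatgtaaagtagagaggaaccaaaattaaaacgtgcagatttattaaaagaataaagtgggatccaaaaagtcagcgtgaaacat
Both copies hold a TTGAC near the far end of the window, AZI1 with 2 matches and EARLI1 with 1. The windows align over 220 bases with 80.5 percent identity. The coding sequences align over 483 bases with 88.8 percent and a longest identical stretch of 32 bases. A further copy, AT4G12490, at 35.0 to 125 FPKM, shares 88.2 percent of aligned coding bases with EARLI1. Its longest identical stretch is 44 bases with EARLI1 and 41 with AZI1. How fragments matching more than 1 of these copies were counted is not given in the sources used here. GRX480 holds 1 match, to TGACG on the opposite strand (CGTCA).

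Over all members, TTGAC was found in 17 of 34 such windows (50 percent), against 44.9 percent of 27443 protein-coding genes. TGACG was found in 8 (23.5 percent), against 18.6 percent of all. TTGACG, which holds both, was found in 3, against 7.19 percent of all. The shares of members were near those of all genes.

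With both DEK genes mutated, dd-2 was set against Col-0. No member was called at an adjusted p below 0.05 with limma, against 0.252 percent of all tested genes. EARLI1 came nearest, at 349 ± 22.4 FPKM (SD, n = 2) in Col-0 and 185 ± 17.3 in dd-2. Its difference on the log2(FPKM + 1) scale was -0.91 ± 0.16 (SE) with a limma adjusted p of 0.0695, and both dd-2 libraries were below both Col-0 libraries. With any 1 library left out it stayed between -1.01 and -0.82, with a limma adjusted p of 0.0577 to 0.285. AT5G52810 was at 14.5 ± 0.845 and 9.39 ± 1.16, a log2 difference of -0.58 ± 0.13 with an adjusted p of 0.0990. GRX480 was at 1.82 ± 0.101 and 3.17 ± 0.808, a log2 difference of 0.55 ± 0.16 with an adjusted p of 0.152, and of 0.35 without dd-2 replicate 1.

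By an unadjusted p below 0.05, 3 members were higher in dd-2 (GRX480, EDS5 and NPR3) and 2 lower (EARLI1 and AT5G52810). These 5 are 17.2 percent of the 29 tested, against 18.6 percent of all genes, so the share was near the background. Both dd-2 libraries were above both Col-0 libraries for 7 members (24.1 percent, against 38 percent of all genes): ICS1, EDS5, EDS1, NPR3, GRX480, WRKY46 and AZI1. They were below for 6 members (20.7 percent, against 15.3 percent of all): AT5G52810, NPR1, WRKY70, PR1, CYP71A13 and EARLI1. Under median-of-ratios scaling AZI1 left the first group, and CBP60G, NPR4 and PR5 joined the second. The median log2 difference of the members was 0.11, beside 0.08 for all tested genes. It was -0.0045 without dd-2 replicate 1, 0.22 without dd-2 replicate 2 and 0.0086 without Col-0 replicate 2.

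Summed FPKM of the 4 shoot markers was 28773 and 24901 in Col-0 and 21229 and 20561 in dd-2, and that of the 4 root markers was 929.7 and 881 in Col-0 and 1462 and 1219.8 in dd-2. Both sums were set by a few genes. PYK10 made up most of the root sum, at 913 and 870.4 FPKM in Col-0 and 1439 and 1197 in dd-2. The shoot genes RBCS1A, RBCS3B and RCA were lower in both dd-2 libraries, while CAB1, at 2739 and 2010.2 in Col-0 and 2547 and 2449 in dd-2, overlapped. Root markers PER64 and CASP1 were higher in both dd-2 libraries, and EXPA7, at 5.68 and 2.88 in Col-0 and 5.42 and 6.79 in dd-2, overlapped. The part of these markers in the differences above was not tested.

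**Figure D2:**
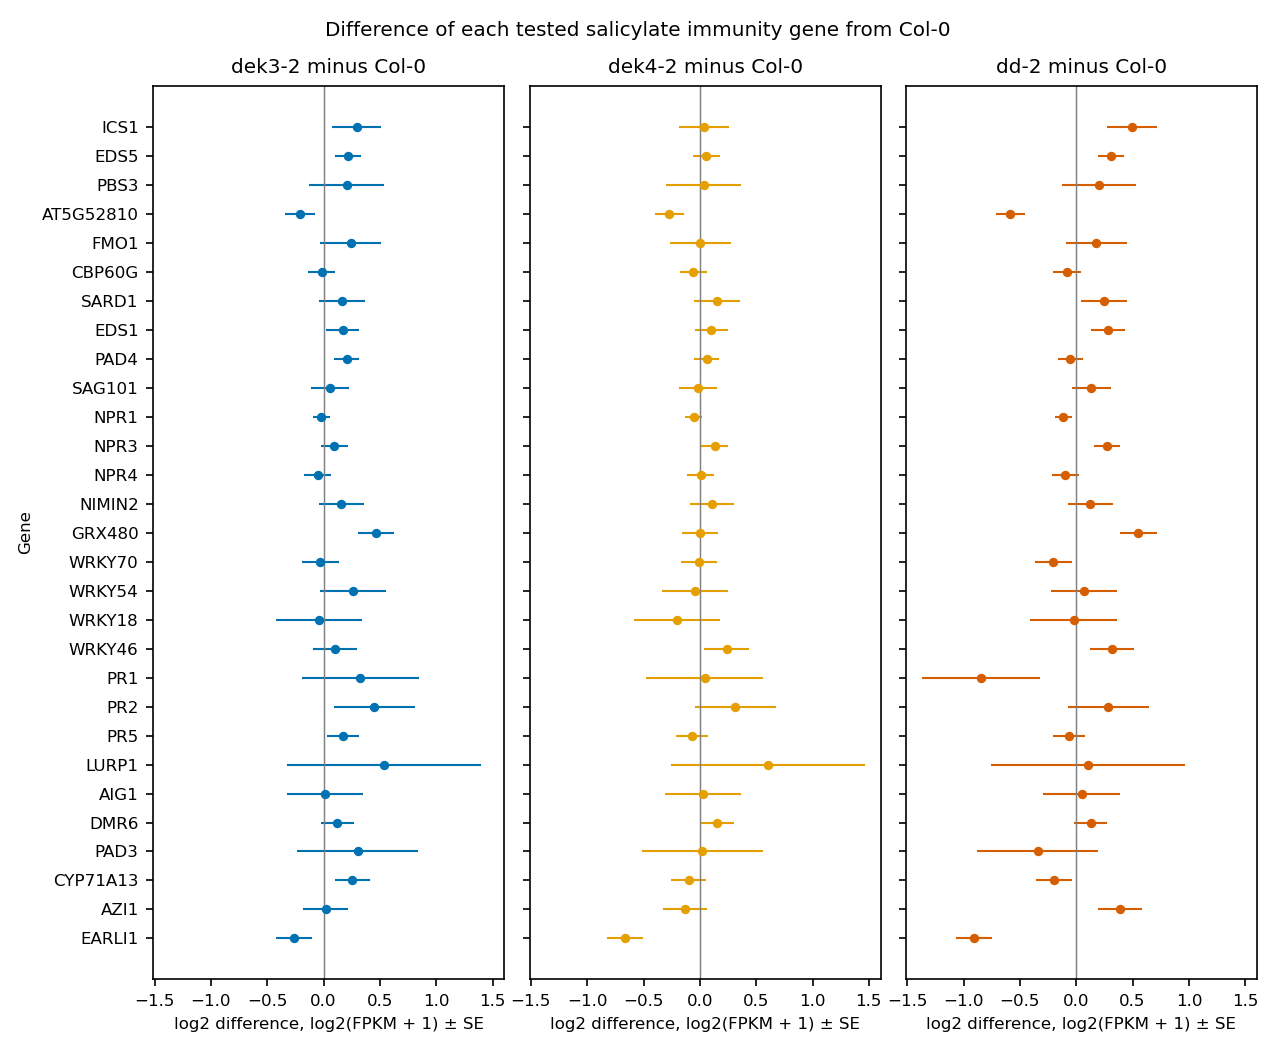
Difference from Col-0 of each of the 29 tested members on the log2(FPKM + 1) scale, in dek3-2, dek4-2 and dd-2, as the fitted value ± SE with 2 libraries a group. EARLI1 lies below 0 in each panel, down to -0.91 in dd-2, and LURP1, PR1 and PAD3 have the widest errors.

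For the DEK3 mutation by itself, dek3-2 was set against Col-0. Again no member was called, against 0.0421 percent of all genes. GRX480 was at 2.89 ± 0.222 FPKM (SD, n = 2) against 1.82 ± 0.101 in Col-0, a log2 difference of 0.47 ± 0.16 with a limma adjusted p of 1. EDS5, at 0.22 ± 0.12, and PAD4, at 0.21 ± 0.11 on the same scale, were next, also with adjusted p = 1, and PAD4 was 0.13 without Col-0 replicate 2. By an unadjusted p below 0.05 only GRX480 passed, 3.45 percent of the 29, against 3.44 percent of all genes. Both dek3-2 libraries were above both Col-0 libraries for EDS5, PAD4, GRX480, WRKY46 and CYP71A13 (17.2 percent, against 20.9 percent of all). They were below for EARLI1 (3.45 percent, against 10.1 percent of all). Under median-of-ratios scaling WRKY46 left the first group and AT5G52810 joined EARLI1.

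In dek3-2 the median log2 difference of the members was 0.17, beside 0.04 for all genes. Of the 29 members 22 (75.9 percent) were above 0, against 64.7 percent of all genes. The median of the members rested on dek3-2 replicate 1, without which it was 0.0062. That library held the highest value of 10 of the 29 tested members, and of 13 of all 34. Among the 10 were ICS1, PBS3, FMO1, WRKY70, WRKY54, PR5 and DMR6. The same library had 774 FPKM of seed markers. Of all tested genes 10.8 percent were highest in it. The part of the seed transcripts in these values was not tested.

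For the DEK4 mutation by itself, dek4-2 was set against Col-0. No member was called, against 0.021 percent of all genes. EARLI1 was at 222 ± 49.6 FPKM (SD, n = 2) against 349 ± 22.4, a log2 difference of -0.67 ± 0.16 with a limma adjusted p of 1, and of -0.44 without dek4-2 replicate 2. AT5G52810 stood at -0.27 ± 0.13 and WRKY46 at 0.24 ± 0.20 on the same scale, both with adjusted p = 1, and WRKY46 lay at -0.019 without dek4-2 replicate 2. By an unadjusted p below 0.05 only EARLI1 passed, 3.45 percent of the members, against 1.97 percent of all genes. Both dek4-2 libraries were above Col-0 for EDS5 and NPR3 (6.9 percent, against 12 percent of all). They were below for AT5G52810, NPR1, AZI1 and EARLI1 (13.8 percent, against 12.1 percent of all). Under median-of-ratios scaling NPR1 left the lower group and CBP60G joined it. Without organelle genes EDS5 left the higher group. The median difference of the members was 0.02, beside 0.0027 for all genes, and with 1 library left out it ran from -0.076 (without dek4-2 replicate 2) to 0.13 (without dek4-2 replicate 1). The 3 comparisons share the Col-0 libraries, so their values are not independent.

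**Figure D3:**
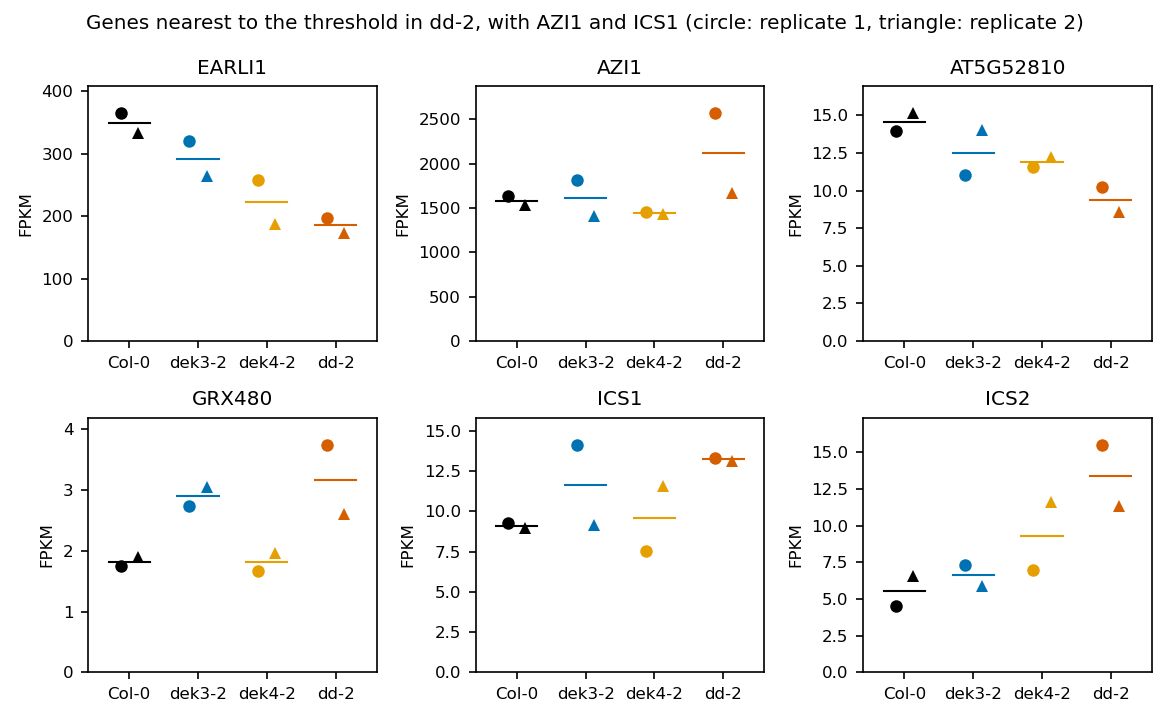
FPKM in each library (points) and the mean of 2 libraries (line) for EARLI1, AZI1, AT5G52810, GRX480, ICS1 and the second isochorismate synthase gene ICS2, in 4 genotypes. EARLI1 falls from 365 and 333 in Col-0 to 198 and 173 in dd-2, and GRX480 lies between 2.596 and 3.74 in the 4 libraries with the dek3-2 mutation and between 1.67 and 1.97 in the others.

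Setting dd-2 against the single mutants asked what the second mutation adds. Against dek3-2 no member was called, with 0.0263 percent of all genes called. EARLI1 was nearest (log2 difference -0.65 ± 0.16, limma adjusted p = 0.2502), followed by CYP71A13 (-0.45 ± 0.16, adjusted p = 0.373) and AT5G52810 (-0.37 ± 0.13, adjusted p = 0.374). AT5G52810 was -0.21 without dek3-2 replicate 2. At an unadjusted p below 0.05 there were 4 members, all lower in dd-2, or 13.8 percent against 10.6 percent of all genes. Against dek4-2 no member was called either, with 0.0421 percent of all genes called. GRX480 was nearest (0.55 ± 0.16, adjusted p = 0.295), then AZI1 (0.52 ± 0.20, adjusted p = 0.363) and AT5G52810 (-0.31 ± 0.13, adjusted p = 0.389). AZI1 was 0.21 without dd-2 replicate 1 and 0.83 without dd-2 replicate 2. GRX480 was 0.35 without dd-2 replicate 1, and AT5G52810 was -0.199 without dd-2 replicate 2. These 3 were the members at an unadjusted p below 0.05, or 10.3 percent against 12.4 percent of all genes.

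The single mutants differed from each other in no member by the test, with 0.0263 percent of all genes called. GRX480 (log2 difference of dek4-2 from dek3-2 of -0.47 ± 0.16), EARLI1 (-0.40 ± 0.16) and CYP71A13 (-0.35 ± 0.16) were nearest, each with a limma adjusted p of 1. EARLI1 ran from -0.17 without dek4-2 replicate 2 to -0.63 without dek4-2 replicate 1, and was -0.26 without dek3-2 replicate 1. GRX480 and EARLI1 had an unadjusted p below 0.05, or 6.9 percent against 2.73 percent of all genes.

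The interaction asked whether the effect of the dek4-2 mutation differs with dek3-2 present, that is, the step from dek3-2 to dd-2 reduced by the step from Col-0 to dek4-2. No member was called, against 0.0158 percent of all genes, and none had an unadjusted p below 0.05, against 3.64 percent. PAD4 was nearest at -0.32 ± 0.16 (limma adjusted p = 1.000), with AZI1 at 0.499 ± 0.28 and PR1 at -1.22 ± 0.74 with the same adjusted p. AZI1 was 0.19 without dd-2 replicate 1, 0.81 without dd-2 replicate 2 and 0.32 without dek3-2 replicate 2. PR1 was -0.57 without Col-0 replicate 2, -0.66 without dek3-2 replicate 2 and -1.87 without Col-0 replicate 1.

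The pathway was also read in 41 other genes, among them the second isochorismate synthase gene, the TGA factors, further receptors, helper immune receptors and salicylate-modifying enzymes. Of these, 40 were tested and none was called in any of the 7 comparisons. In dd-2 against Col-0, 7 were higher and 2 lower at an unadjusted p below 0.05, or 22.5 percent against the 18.6 percent of all genes. ICS2 (AT1G18870), the second isochorismate synthase, was at 4.51 and 6.55 FPKM in Col-0, 7.34 and 5.87 in dek3-2, 7.01 and 11.6 in dek4-2, and 15.5 and 11.3 in dd-2. The ICS2 difference in dd-2 was 1.14 ± 0.26 on the log2(FPKM + 1) scale, with a limma adjusted p of 0.106. It was larger in size than that of any tested member on this scale only. The scale understates the differences of low genes such as PR1, at -0.85, so the ranking does not extend to ratios of FPKM. TGA1, a factor that binds NPR1, was at 20.3 ± 1.41 FPKM (SD, n = 2) in Col-0 and 26.6 ± 1.80 in dd-2, a log2 difference of 0.38 ± 0.09 with an adjusted p of 0.112.

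All 7 TGA genes of that list, grouped here after their values were seen, had both dd-2 libraries above both Col-0 libraries, and 6 of 7 did under median-of-ratios scaling. For single genes this held in 38 percent of all tested with the values as deposited. The share of all genes under median-of-ratios scaling was not counted. TGA7 had 22.99 and 25.8 FPKM in Col-0 and 37.5 and 30.96 in dd-2. TGA3 had 27.99 and 33.0 in Col-0 and 41.2 and 36.9 in dd-2.

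In dek3-2, the salicylate glucosyltransferase gene UGT74F1 (0.32 ± 0.13 on the log2 scale) and DIR1, a lipid-transfer protein of systemic resistance (-0.18 ± 0.08), had the smallest p, each with a limma adjusted p of 1. In dek4-2 these were UGT76B1, a glucosyltransferase that restrains defence (-0.43 ± 0.13), and ICS2 (0.64 ± 0.26), also with adjusted p = 1. ICS2 ran from 0.31 without dek4-2 replicate 2 to 0.97 without dek4-2 replicate 1, and was 0.41 without Col-0 replicate 1. UGT74F1 was 0.21 without Col-0 replicate 2. At an unadjusted p below 0.05 there was 1 higher gene in dek3-2, or 2.5 percent of the list against 3.44 percent of all genes. In dek4-2 there were 1 higher and 1 lower, or 5 percent against 1.97 percent. The jasmonate-branch marker PDF1.2, a defensin gene, stood at 13.7 and 9.28 FPKM in Col-0, 35.8 and 33.1 in dek3-2, 14.8 and 6.85 in dek4-2, and 18.7 and 15.5 in dd-2. It was highest in the dek3-2 libraries. Of the other jasmonate-branch markers, VSP1 was also above both Col-0 libraries in dek3-2, at 3.88 and 4.67 against 2.45 and 3.56 FPKM. VSP2, at 1.297 and 1.24 against 0.923 and 1.37, and LOX2, at 32.5 and 30.3 against 24.5 and 33.5, overlapped Col-0.

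The members varied more between replicates than most genes, in a comparison that was not matched for level. Of the members, 11 had means between 1 and 5 FPKM. The median within-genotype SD on the log2(FPKM + 1) scale was 0.21 for the 29 tested members and 0.11 for all tested genes. The widest was LURP1, at 0.93, followed by PR1 and PAD3 at 0.65 each, WRKY18 and PR2 at 0.46 each and AIG1 at 0.44. These 6 were above 98.1 percent or more of all genes in spread. NPR1, at 0.031, was at percentile 1.74. The PR gene PR5 lay at 0.18, the receptors NPR3 and NPR4 at 0.11 and 0.13, and the transporter gene EDS5 at 0.055.

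PAD3 was at 3.45 and 6.81 FPKM in Col-0, 3.96 and 9.65 in dek3-2, 3.497 and 6.98 in dek4-2, and 2.43 and 5.31 in dd-2. In each genotype the second library was the higher, and PAD3 was the 1 tested member with that pattern, which 11.9 percent of all genes showed. LURP1 was at 17.97 and 2.76 in Col-0, 16.6 and 7.54 in dek3-2, 12.9 and 10.8 in dek4-2, and 10.02 and 6.49 in dd-2. PAD4, LURP1, AZI1 and EARLI1 were higher in the first library of each genotype, as were 9.12 percent of all genes. For both PAD3 and LURP1 each mutant overlapped Col-0.

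**Figure D4:**
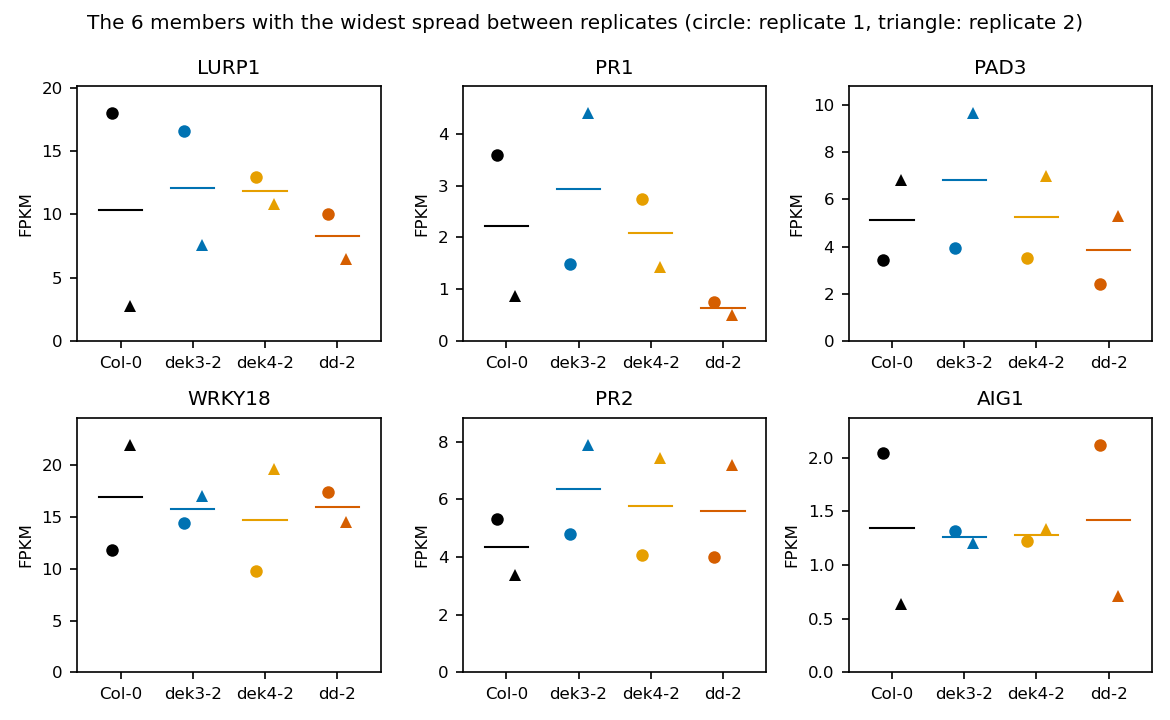
FPKM in each library (points) and the mean of 2 libraries (line) for the 6 tested members with the widest spread between replicates, in 4 genotypes, circles for replicate 1 and triangles for replicate 2. PAD3 is higher in each second library and LURP1 in each first, from 17.97 against 2.76 in Col-0 to 10.02 against 6.49 in dd-2.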

How the data were processed

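RNA from whole seedlings was sequenced in 8 libraries of 4 genotypes. The deposited unit is FPKM (fragments relative to gene length and library size) for each gene and library, per the file headers. HISAT2, featureCounts, edgeR and the build TAIR10 are named, without version or role, in the submitters' processing notes. The program that wrote the FPKM, any scaling between libraries and the use of strand in counting are not given in the sources used here.

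Tests used limma 3.58.1 (R 4.3.3) on log2(FPKM + 1), with trended and robust variances and a genotype mean for every group, fitted to the 8 libraries together. Genes averaging 1 FPKM or more, 19017 in number, entered 7 comparisons. Those with Benjamini-Hochberg adjusted p under 0.05, over all 19017, were counted as called. The procedure was tested on simulated data with independent noise and no effect of replicate number. That test does not cover such an effect. Differences on this scale understate those of low genes. P-values measure the spread between these libraries.

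The members and all gene lists were chosen with earlier results of these data known. Differences and p-values are given for each member called and for the 3 with the smallest p in each comparison. Of the other pathway genes, the rule took those called and the 2 with the smallest p in each mutant against Col-0. Any further name was chosen after its values were seen. Start coordinates in the files count from 0 and were shifted to count from 1. Sequences came from RefSeq's TAIR10.1. In 99.2 percent of 26690 coding genes a RefSeq coding span lay inside the files' locus. Biopython 1.88 aligned sequences, and matplotlib 3.10.9 (Python 3.11.15) drew the figures. Alternatives were scaling, filter, pseudocount, libraries left out and limma settings. The 4 gene IDs with a failed status in the files are no members.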

Additional observations from a re-analysis of the deposited data

How the results depend on the processing

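No member was called in any of the 7 comparisons under any alternative except 1. With the replicate number as a block, EARLI1 alone was called, so 1 member in dd-2 against Col-0 (log2 difference -0.91, adjusted p = 0.0105) and 1 in dd-2 against dek3-2 (-0.65, adjusted p = 0.0385). The labels do not say that a number marks a shared batch, and the deviations of same-numbered libraries correlated across genes from -0.07 to 0.23. The numbers were therefore not taken as pairing the libraries. Even so, 11.9 and 9.12 percent of genes were higher in number 2 or in number 1 in all 4 genotypes, EARLI1 among the latter. Whether EARLI1 is called depends on whether the number is used as a block. In the block fit PAD3 differed between numbers 2 and 1 by 0.91 (limma adjusted p = 0.0137). It was higher in number 2 in 4 of 4 genotypes, and was 1 of 125 genes called for number among 19017. Over all alternatives the adjusted p in dd-2 against Col-0 ran from 0.0105 to 0.285 for EARLI1, from 0.0721 to 0.296 for AT5G52810 and from 0.133 to 0.483 for GRX480. The direction of the named genes turned once: WRKY46 in dek4-2 ran from -0.019 to 0.49 with 1 library left out. The member median ran from 0.0062 to 0.20 in dek3-2, from -0.17 to 0.029 between the single mutants and from -0.20 to 0.037 in the interaction with 1 library left out. Calls over all genes ran from 10 to 305 in dd-2 (48 as reported), 6 to 16 in dek3-2 (8), 3 to 10 in dek4-2 (4), 1 to 74 in dd-2 against dek3-2 (5), 4 to 13 against dek4-2 (8), 4 to 13 between the single mutants (5) and 1 to 11 in the interaction (3). The counts of 305 and 74 came from the fit with the replicate number as a block. With 2 libraries a genotype and 5 members under 1 FPKM, small differences were not detectable.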
